A study of Mus musculus with 8 samples.

Results

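The expression difference between CD115- and CD115+ monocytic cells of bone marrow (BM) was compared between EL4 tumor-bearing (TB) and naive mice, gene by gene. The measure is the interaction of subset and tumor, which is the log2 difference of tCD115- over tCD115+ cells minus the log2 difference of nCD115- over nCD115+ cells. A positive interaction means that the ratio of CD115- to CD115+ cells was larger in the tumor hosts than in their tumor-free counterparts, and the same number is the tumor effect in CD115- cells minus the tumor effect in CD115+ cells. All genes entered, and 13211 of the 16160 genes with reads passed the filter on low counts and were tested.

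The 8 RNA-Seq libraries form 4 groups of 2: CD115- (tCD115-) and CD115+ (tCD115+) cells from the BM of mice 21 days after inoculation with EL4, a T lymphoma line of C57BL/6 origin, and CD115- (nCD115-) and CD115+ (nCD115+) cells from the BM of tumor-free mice. All animals were wild type C57BL/6, and the sort kept CD11c- CD11b+ Ly6G- SiglecF- Ly6C high cells and split them by CD115. The 2 libraries of a group are described as biological replicates, but nothing states how many mice a library holds or whether the subsets of a host came from the same mice. With bulk RNA, fewer cells of a type and less RNA per cell cannot be told apart, so a value below is a level in the sorted population.

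CD115 is the receptor of M-CSF and is encoded by *Csf1r*. In mouse BM, monocytes with high Ly6C arise from progenitors that can also give neutrophils, and M-CSF sustains the monocytic branch. In tumor hosts, cells with this surface phenotype and T cell suppressive capacity are called monocytic myeloid-derived suppressor cells (M-MDSCs). An interaction asks whether a tumor acts on both subsets to the same extent.

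Library totals lay between 69692398 and 95353798 reads, so that 1 read was 0.0101 to 0.0138 CPM (read counts scaled to library size by the trimmed mean of M-values). *Csf1r* stood at 283 and 490.3 CPM in tCD115- and 891 and 869 CPM in tCD115+ libraries, and at 825 and 728 CPM in nCD115- and 1159 and 1333 CPM in nCD115+ libraries. It was lower in every CD115- library than in both CD115+ libraries of the same host, and its interaction was -0.50 (95% interval -1.24 to 0.23). The 7 genes of the sorting gate had interactions between -0.50 and 0.21. Transcripts of the gated-out markers were present: *Ly6g* reached 44.3 and 26.7 CPM in tCD115-, 0.98 and 0.468 CPM in tCD115+, 20.3 and 25.0 CPM in nCD115- and 0.36 and 0.45 CPM in nCD115+ libraries, with an interaction of -0.23 (-1.45 to 1.00). The tCD115- libraries stood apart from each other more than those of any other group: replicates 1 and 2 summed to 70622 and 47361 CPM over secondary granule genes and to 10039 and 14969 CPM over 24 monocyte identity genes.

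The interaction passed the thresholds of a 2-fold difference and a Benjamini-Hochberg adjusted p under 0.05 in 0 of 13211 genes, 0% of those tested, with edgeR's quasi-likelihood test. The smallest adjusted p was 0.0805, shared by 4 genes, *Cmah*, *Chtop*, *Csf1* and *Ankrd49*, and 8 genes were under 0.1. At an unadjusted p under 0.05 there were 751 genes (5.68%), of which 354 had a positive (2.68%) and 397 a negative interaction (3.01%). Among these 751, 256 also reached 2-fold, and they leaned the other way, with 171 positive and 85 negative. The median interaction of all genes was -0.06 on the log2 scale, and 5088 of the 13211 genes (38.5%) were above 0. With the size factors of DESeq2 in place of the trimmed mean, the median was -0.003 and the 719 genes at an unadjusted p under 0.05 split into 481 positive and 238 negative ones, so the balance of directions over all genes depended on the scaling.

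**Figure D1:**
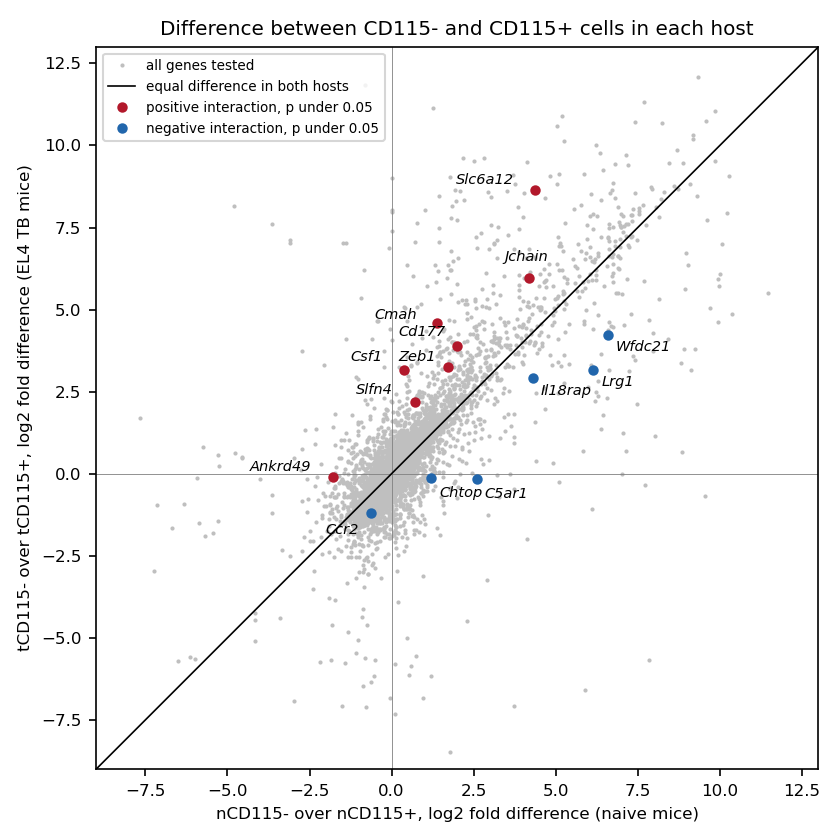
Each point is 1 gene, with the log2 fold difference of nCD115- over nCD115+ cells on the x axis and of tCD115- over tCD115+ cells on the y axis; the diagonal marks an equal difference in both hosts, and 3 genes lie outside the axes. *Cmah*, *Csf1* and *Cd177* sit above the diagonal and *C5ar1*, *Lrg1* and *Wfdc21* below it, while most genes lie along it.

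For most genes the interval was narrow enough to bound the interaction. The 95% interval lay within 2-fold in either direction for 9063 of 13211 genes (68.6%), and for 7962 of the 8844 genes with at least 10 CPM in 1 group (90.0%). Over these 8844 genes the median absolute interaction was 0.117, against a median absolute tumor effect of 0.183 in CD115- and 0.178 in CD115+ cells, and the median standard error of an interaction was 0.145. The tumor effects of both subsets had a Pearson r of 0.403 across all genes tested and 0.673 across the 8844 genes. Genes are not independent replicates, and each tumor effect has its own libraries.

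The number of calls depended on the tool and on single libraries. DESeq2 called 57 genes with a positive and 12 with a negative interaction, 68 of these 69 with an unadjusted p under 0.05 in edgeR, and limma-voom called 0 genes with 760 at an unadjusted p under 0.05. Without replicate 2 of tCD115-, edgeR called 60 genes with a positive and 113 with a negative interaction, and all 173 had the same sign with all libraries. Without replicate 1 of tCD115- it called 16 positive and 7 negative ones, and 14 of these 23 were also called by DESeq2. Leaving out replicate 2 of tCD115+ gave 2 and 4 calls, replicate 1 of nCD115- 2 and 0, and replicate 1 of nCD115+ 2 and 1. In these fits the remaining library of the group was assumed to vary like the other groups. Each such fit also reuses libraries of the reported fit, so a kept sign is no independent support. Without replicate 1 of tCD115-, not every called gene kept its sign.

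**Figure D2:**
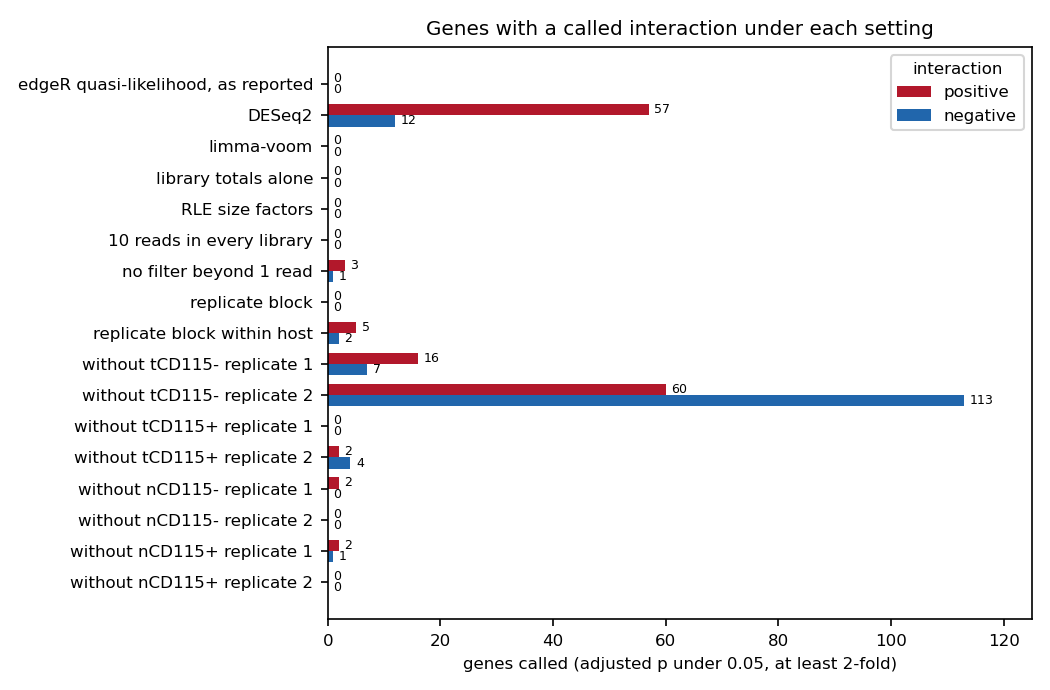
Bars give the number of genes called with a positive or negative interaction (adjusted p under 0.05 and at least 2-fold) with edgeR as reported, with other tools, scalings and filters, with a replicate block and with 1 library left out. The reported fit stands at 0 and 0, DESeq2 at 57 and 12, and the fit without replicate 2 of tCD115- at 60 and 113.

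The genes described next were chosen after their values were seen, because no gene passed the thresholds. None of the named genes whose interval excludes 0 changed sign under any alternative. This follows in part from their choice and from the reuse of the same libraries, so it is no independent support. Of 103 named genes, edgeR called 11 when replicate 1 of tCD115- was left out, 21 when its replicate 2 was, 3 when replicate 2 of tCD115+ was, and 0 in the other 5 omissions, and DESeq2 called 29.

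*Csf1*, the gene of M-CSF, the ligand of CD115, moved in opposite directions in the subsets. Its RefSeq promoter (GRCm38.p6, minus strand, chr3:107760420-107760719, the first 250 bases before the annotated start and 50 from it) is shown because ligand and sorting receptor belong to the same pathway. The gene spans 107741048 to 107760469 on chromosome 3 and overlaps the gene model *Gm40121*.
*Csf1* promoter: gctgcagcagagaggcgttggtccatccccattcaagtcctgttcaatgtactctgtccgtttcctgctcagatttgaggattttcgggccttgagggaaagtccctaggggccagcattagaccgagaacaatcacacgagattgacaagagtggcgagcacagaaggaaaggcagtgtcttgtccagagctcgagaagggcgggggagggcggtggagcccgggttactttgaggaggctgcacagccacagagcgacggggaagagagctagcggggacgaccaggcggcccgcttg

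*Csf1* was at 15.0 and 9.83 CPM in tCD115- and 1.45 and 1.31 CPM in tCD115+ libraries, and at 4.98 and 5.46 CPM in nCD115- and 3.79 and 4.21 CPM in nCD115+ libraries. Both tCD115- libraries were above, and both tCD115+ libraries below, all naive libraries. The log2 tumor effect was 1.25 in CD115- cells (adjusted p = 0.0179 with edgeR) and -1.53 in CD115+ cells (adjusted p = 0.0124), and the interaction was 2.78 ± 0.30 (SE; 95% interval 2.08 to 3.49). *Csf1* was the single gene whose tumor effects were called in both subsets with opposite signs. It was called by DESeq2 and without either tCD115- library, and its log2 interaction ranged from 2.46 to 3.05 over all alternatives.

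*Cmah* encodes the hydroxylase that makes N-glycolylneuraminic acid, a sialic acid of mouse cell surfaces. It was at 45.4 and 34.3 CPM in tCD115- and 1.93 and 1.32 CPM in tCD115+ libraries, against 7.42 and 9.55 CPM in nCD115- and 3.46 and 3.08 CPM in nCD115+ libraries. The subsets thus differed in the same direction in both hosts, and the interaction was 3.23 ± 0.31 (2.5 to 3.95). The gene model *Gm11342* lies within its bounds on chromosome 13 (24327404 to 24477289), and no source used here says whether reads were counted by strand. The same caution holds for *Csf1* and for *Zeb1*, a repressor of epithelial genes that shares bases with *Gm10125*. *Zeb1* stood at 25.9 and 22.1 CPM in tCD115- and 2.60 and 2.42 CPM in tCD115+ cells and at 19.2 and 22.3 CPM in nCD115- and 6.74 and 5.90 CPM in nCD115+ cells, an interaction of 1.54 (1.10 to 1.97). Its levels overlapped between the CD115- groups and were lower in tCD115+ than in nCD115+ libraries.

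Other genes of this direction were of moderate to high expression. *Slfn4*, a Schlafen family gene of myeloid cells, was at 225 and 171 CPM in tCD115-, 42.0 and 44.9 CPM in tCD115+, 102 and 106 CPM in nCD115- and 61.2 and 66.3 CPM in nCD115+ libraries. Its tumor effects were 0.93 in CD115- and -0.55 in CD115+ cells, and its interaction was 1.48 (1.06 to 1.90). *Itgb3*, the integrin beta 3 chain, was lower in both tumor groups than in both naive groups, with 36 and 36.1 CPM in tCD115- and 16.7 and 17.4 CPM in tCD115+, against 67.4 and 71.5 CPM in nCD115- and 54.5 and 57.3 CPM in nCD115+ libraries. Its interaction of 0.77 (0.53 to 1.0) came from tumor effects of -0.95 in CD115- and -1.71 in CD115+ cells. *Ankrd49*, an ankyrin repeat gene, differed by its low level in naive CD115- cells: 23.1 and 19.9 CPM in tCD115-, 23.1 and 23.2 CPM in tCD115+, 5.11 and 6.48 CPM in nCD115- and 19.3 and 20.8 CPM in nCD115+ libraries, an interaction of 1.68 (1.25 to 2.12).

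**Figure D3:**
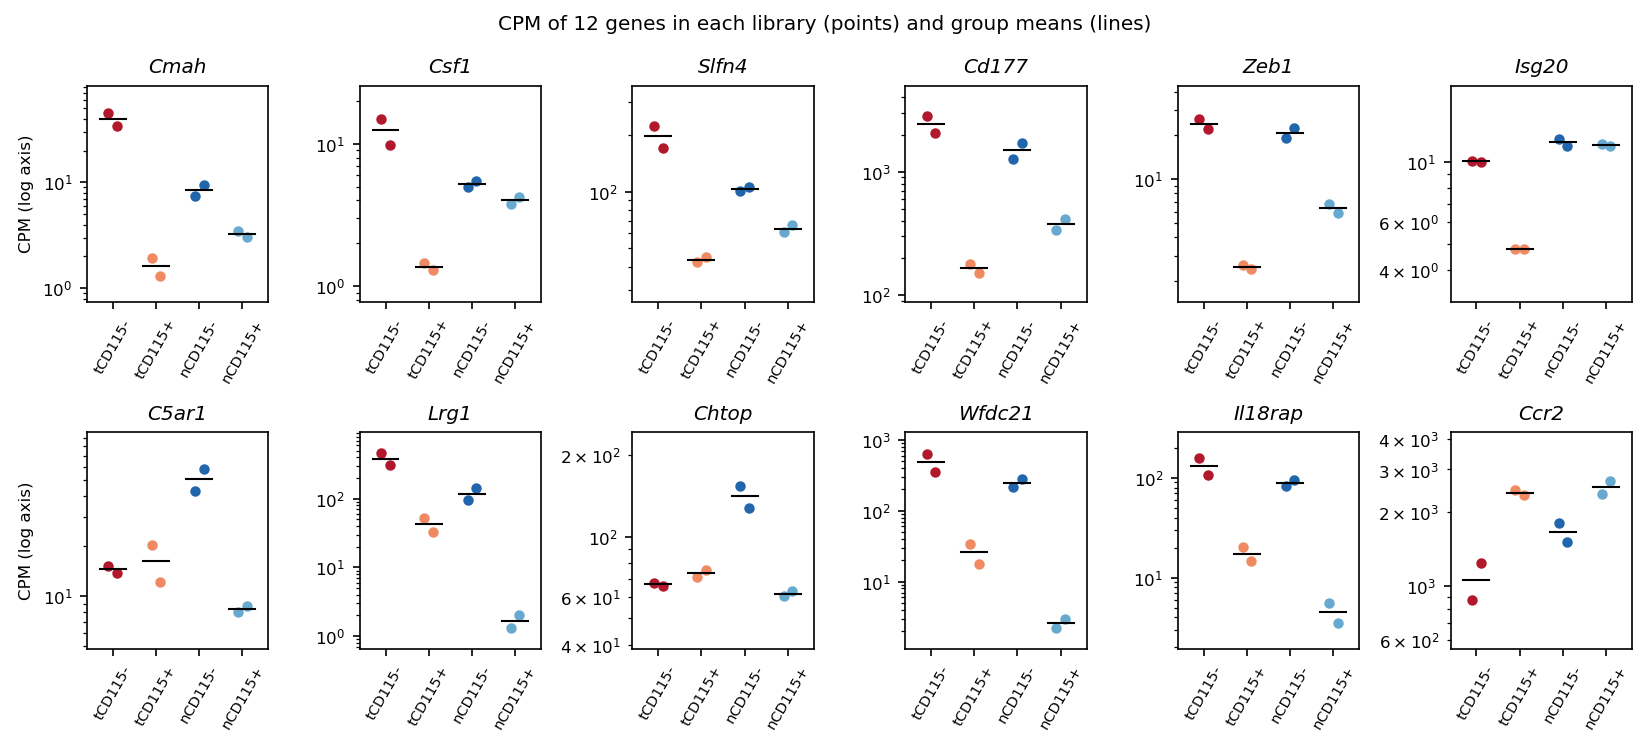
Points are the CPM of 12 genes in each library on log axes, and lines are means of the 2 libraries of a group, with tCD115- and tCD115+ left of nCD115- and nCD115+. *Csf1* is highest in tCD115- and lowest in tCD115+ cells, whereas *C5ar1* is highest in nCD115- cells and *Lrg1* is high in every group except nCD115+.

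On the negative side, *C5ar1*, the receptor for the complement anaphylatoxin C5a that draws neutrophils and monocytes to sites of inflammation, had the same crossed pattern with the signs turned. The gene spans 16246743 to 16259540 on chromosome 7, and its RefSeq promoter (GRCm38.p6, minus strand, chr7:16259289-16259588) is printed for comparison with that of *Csf1*. Capitals mark a match to the interferon regulatory factor motif GAAANNGAA on the opposite strand, 66 bases before the start used for this promoter. That start and the match lie inside the gene bounds, whereas the start used for *Csf1* is at the end of its gene bounds.
*C5ar1* promoter: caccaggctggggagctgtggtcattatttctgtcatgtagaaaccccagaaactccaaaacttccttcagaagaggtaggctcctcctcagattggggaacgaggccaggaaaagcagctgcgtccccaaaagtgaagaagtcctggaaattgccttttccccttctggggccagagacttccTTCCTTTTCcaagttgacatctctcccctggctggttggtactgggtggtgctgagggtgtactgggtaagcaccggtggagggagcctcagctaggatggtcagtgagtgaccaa

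*C5ar1* was at 15.2 and 13.9 CPM in tCD115- and 20.3 and 12.2 CPM in tCD115+ libraries, against 42.8 and 58.3 CPM in nCD115- and 8.01 and 8.81 CPM in nCD115+ libraries. The tumor groups overlapped, and the naive subsets were separated, with a log2 difference of -0.17 between subsets in EL4 TB mice and 2.59 in naive mice. The tumor effect was -1.80 in CD115- and 0.95 in CD115+ cells, and the interaction was -2.75 ± 0.34 (-3.54 to -1.97). DESeq2 called it, as did edgeR without replicate 2 of tCD115+.

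*Chtop*, a gene of mRNA export, was near one level in 3 groups and high in nCD115- libraries: 67.6 and 66.1 CPM in tCD115-, 70.9 and 75.7 CPM in tCD115+, 154 and 128 CPM in nCD115- and 60.7 and 62.9 CPM in nCD115+ libraries, with an interaction of -1.32 (-1.65 to -1.0). *Kat7*, a histone acetyltransferase gene, was at 65.9 and 76.2 CPM in tCD115-, 131 and 75.7 CPM in tCD115+, 129 and 143 CPM in nCD115- and 65.2 and 68.5 CPM in nCD115+ libraries. Its interaction of -1.57 (-2.30 to -0.83) included a tCD115+ group whose libraries lay far apart. *Net1*, a guanine nucleotide exchange factor gene, had an interaction of -1.64 (-2.34 to -0.95), with 23.8 and 21.9 CPM in tCD115- and 37.3 and 36.6 CPM in tCD115+, against 39.1 and 44.7 CPM in nCD115- and 16.1 and 27.2 CPM in nCD115+ libraries. In *Net1* the order of the subsets was turned round between hosts.

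The motifs of STAT, C/EBP and interferon regulatory factors were counted in the 300-base promoters of genes at an unadjusted p under 0.05 and 2-fold, on both strands. TTCNNNGAA, the core bound by STAT factors, was in 15 of 126 promoters of the positive genes (11.9%) and 3 of 65 of the negative genes (4.62%), beside 747 of 10460 promoters of all genes tested (7.14%). TTGCNNAA, the C/EBP core, was in 12.7% of the positive, 7.69% of the negative and 8.59% of all promoters. GAAANNGAA was in 7.14%, 3.08% and 7.5%, and the *Csf1* promoter held none of these letters.

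*Lrg1*, *Wfdc21* and *Il18rap* had a negative interaction although their gap between subsets in CPM was wider in EL4 TB mice. *Lrg1*, which encodes a secreted leucine-rich glycoprotein induced by STAT3-activating cytokines, was at 460.1 and 306 CPM in tCD115- and 52.7 and 32.5 CPM in tCD115+ libraries, against 94.5 and 143 CPM in nCD115- and 1.3 and 2.04 CPM in nCD115+ libraries. The tumor groups were above their naive counterparts in both subsets, with log2 tumor effects of 1.69 for CD115- and 4.67 for CD115+ cells, so the interaction was -2.98 ± 0.48 (-4.08 to -1.87) although the linear difference of differences was 223 CPM in favor of EL4 TB mice. *Wfdc21*, a small secreted protein gene of neutrophils, showed the same: 638 and 348 CPM in tCD115-, 34.1 and 18 CPM in tCD115+, 217 and 282 CPM in nCD115- and 2.24 and 2.96 CPM in nCD115+ libraries, an interaction of -2.34 (-3.56 to -1.13) and a linear value of 220 CPM. *Il18rap*, a chain of the interleukin-18 receptor, had an interaction of -1.38 (-2.25 to -0.52) with 157 and 107 CPM in tCD115-, 20.3 and 14.5 CPM in tCD115+, 83.5 and 95.1 CPM in nCD115- and 5.57 and 3.51 CPM in nCD115+ libraries. In all 3 genes the low level of nCD115+ cells set the larger log2 ratio in naive mice. Over the 256 genes at an unadjusted p under 0.05 and 2-fold, 24 had the opposite sign on the linear CPM scale, 16 of them negative on the log2 scale.

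Granule genes of neutrophils did not share one direction. Secondary granule genes, whose proteins are made at the myelocyte stage, had a median interaction of 0.53 over 13 genes, 10 of them above 0 (76.9%, beside 38.5% of all genes). At an unadjusted p under 0.05, 4 were positive and 1 negative (30.8% and 7.69%, beside 2.68% and 3.01% of all genes). *Cd177*, a neutrophil surface glycoprotein gene, had 2849 and 2068 CPM in tCD115- and 179 and 153 CPM in tCD115+, against 1269 and 1716 CPM in nCD115- and 341 and 415 CPM in nCD115+ libraries. The tCD115+ libraries were the lowest and the tCD115- libraries the highest, and the interaction was 1.91 (1.25 to 2.57, adjusted p = 0.184 with edgeR). *Pglyrp1*, a peptidoglycan recognition protein gene, had 953 and 621 CPM in tCD115-, 15.2 and 11.7 CPM in tCD115+, 405 and 538 CPM in nCD115- and 17.8 and 19.4 CPM in nCD115+ libraries, an interaction of 1.21 (0.46 to 1.95).

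*Lcn2*, which encodes the siderophore-binding protein lipocalin 2, went against these on the log2 scale, with an interaction of -0.97 (-1.87 to -0.07). It had 7572 and 4997 CPM in tCD115-, 206 and 136 CPM in tCD115+, 2593 and 3556 CPM in nCD115- and 37.3 and 48.1 CPM in nCD115+ libraries. Its linear value of 3082 CPM had the same sign as those of *Cd177* (1179 CPM) and *Pglyrp1* (321 CPM). *Ngp*, the gene of highest CPM in the list, had an interaction of 0.57 (-0.27 to 1.41). The list median lay between 0.24 and 0.89 over the alternatives. Primary granule genes had a median of 0.15 over 12 genes, with 0 of 12 at an unadjusted p under 0.05, and their median was -0.24 without replicate 1 of tCD115- and 0.48 without replicate 2.

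Tertiary granule and mature neutrophil genes had a median of 0.09 over 21 genes (0.12 with the 2 genes without a read in a group set to a floor of 3 reads). Of these genes 2 were positive and 3 negative at an unadjusted p under 0.05 (9.52% and 14.3%, beside 2.68% and 3.01% of all genes). Without replicate 1 of tCD115- their median was -0.33. *Padi4*, the peptidylarginine deiminase gene that citrullinates histones in neutrophils, was positive: 202 and 172 CPM in tCD115-, 43.8 and 42.5 CPM in tCD115+, 146 and 177 CPM in nCD115- and 72.1 and 82.9 CPM in nCD115+ libraries, an interaction of 1.05 (0.65 to 1.46). *Trem1*, an activating receptor of neutrophils and monocytes, was negative at -1.0 (-1.78 to -0.21), with a positive linear value of 13.3 CPM. *S100a9*, a calprotectin chain and the most abundant of the list, had an interaction of -0.39 (-1.52 to 0.74), which was 0.18 without replicate 1 of tCD115+. The *S100a9* interval is wide because its tCD115- libraries were at 35325 and 21023 CPM and its tCD115+ libraries at 392 and 198 CPM.

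**Figure D4:**
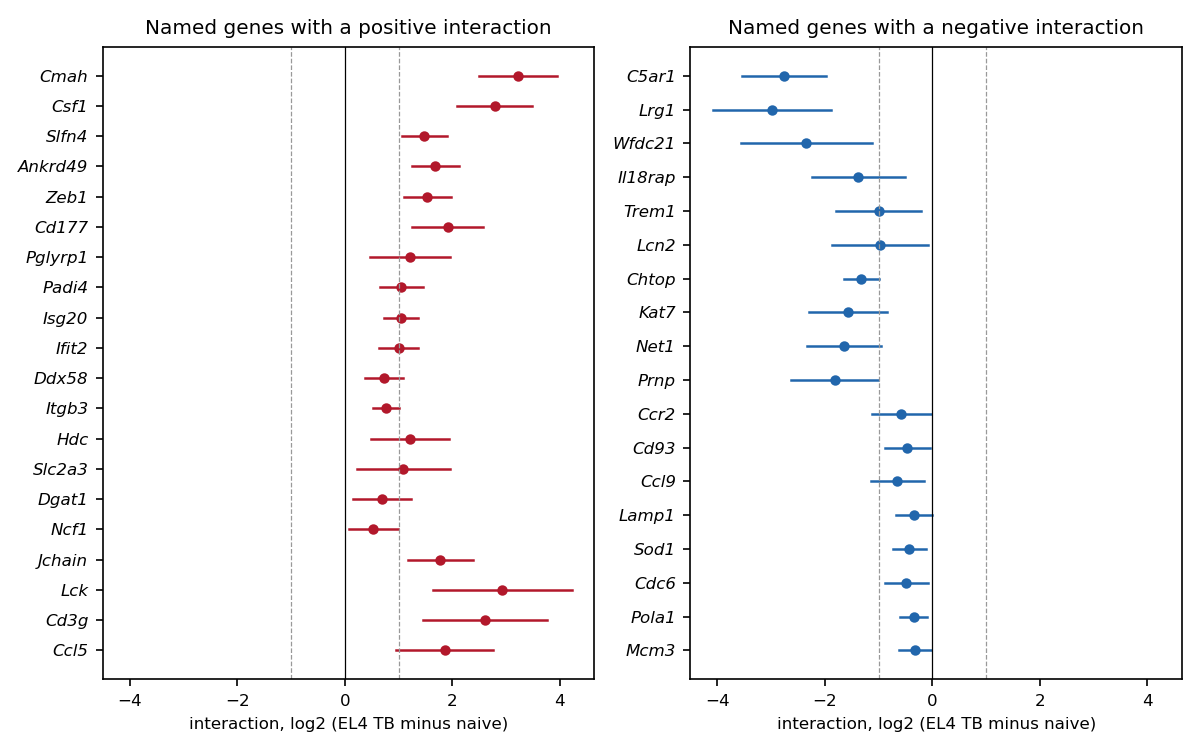
Points are interactions and lines their 95% intervals from edgeR for named genes, with genes of positive interaction in the left panel and of negative interaction in the right; dashed lines mark 2-fold. *Cmah* and *Csf1* are at 3.23 and 2.78, *C5ar1* and *Lrg1* at -2.75 and -2.98, and the DNA replication genes *Cdc6*, *Pola1* and *Mcm3* between 0 and -1.

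Monocyte identity genes leaned to the negative side. Their median interaction was -0.44 over 24 genes, beside -0.06 over all genes tested. Of the 24, 22 were below 0, beside 8123 of all 13211. Just 1 was negative at an unadjusted p under 0.05 (4.17%, beside 3.01% of all genes). That gene was *Ccr2*, the chemokine receptor that releases monocytes from BM, with 873 and 1244 CPM in tCD115- and 2477 and 2348 CPM in tCD115+ libraries, against 1803 and 1511 CPM in nCD115- and 2384 and 2683 CPM in nCD115+ libraries. The tCD115- libraries were the lowest and the nCD115- libraries came next, both CD115+ groups overlapped, and the interaction was -0.58 (-1.13 to -0.02). *Fn1*, the fibronectin gene and the member of highest CPM, was at 1720.5 and 3715 CPM in tCD115-, 6967 and 5519 CPM in tCD115+, 4962 and 5460.2 CPM in nCD115- and 6672 and 8775 CPM in nCD115+ libraries, with an interaction of -0.63 (-1.69 to 0.42). The distance between its tCD115- libraries recurred across the list: the median was -0.86 without replicate 2 of tCD115-, when *Klf4*, *Cx3cr1* and *Ace* were among the members called lower, and -0.13 without replicate 1. The granule sums given above differed between these libraries in the other direction, and their part in the monocyte values was not tested.

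Chemokine genes and other receptors followed in part. *Ccl9*, a chemokine gene of myeloid cells, had 195 and 240.3 CPM in tCD115- and 509.7 and 461 CPM in tCD115+, against 448 and 346 CPM in nCD115- and 536 and 593 CPM in nCD115+ libraries, an interaction of -0.65 (-1.14 to -0.16). *Ccl5* was positive at 1.85 (0.95 to 2.76) at low levels, 2.52 and 3.83 CPM in tCD115-, 0.384 and 0.358 CPM in tCD115+, 3.90 and 3.77 CPM in nCD115- and 1.36 and 1.89 CPM in nCD115+ libraries. With *Csf1*, 2 of 15 ligand genes were positive and 1 negative at an unadjusted p under 0.05, and of 19 chemokine and chemoattractant receptor genes 1 was positive and 2, *C5ar1* and *Ccr2*, were negative. Over all genes 2.68% were positive and 3.01% negative at that level. *Cxcr2*, the receptor of neutrophil chemokines, had 132 and 80.3 CPM in tCD115-, 3.63 and 2.27 CPM in tCD115+, 22.7 and 30.4 CPM in nCD115- and 0.787 and 0.798 CPM in nCD115+ libraries. It was higher with the tumor in both subsets, with log2 effects of 2.0 for CD115- and 1.91 for CD115+ cells, and its interaction was 0.09 (-0.96 to 1.14).

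Proliferation genes showed small interactions with tight intervals. All 20 DNA replication and S phase genes were below 0, beside 8123 of all 13211. Their median was -0.29, with a range from -0.49 to -0.07. Of these 20, 4 had an unadjusted p under 0.05, beside 3.01% of all genes that were negative at that level. The interval lay within 2-fold for 19 of the 20. *Cdc6*, which loads the replicative helicase, had 58.2 and 54.8 CPM in tCD115- and 41.8 and 47.5 CPM in tCD115+, against 39.5 and 39.8 CPM in nCD115- and 25.1 and 19.7 CPM in nCD115+ libraries, an interaction of -0.48 (-0.88 to -0.08). The tumor groups were above the naive groups in both subsets. *Mcm3*, a subunit of that helicase, had 247 and 243 CPM in tCD115-, 237 and 257 CPM in tCD115+, 183 and 192 CPM in nCD115- and 161 and 140.1 CPM in nCD115+ libraries, an interaction of -0.32 (-0.62 to -0.03). Its subsets overlapped in EL4 TB mice and were apart in naive mice. The median tumor effect of the list was 0.40 in CD115- and 0.68 in CD115+ cells, and the list median stayed between -0.37 and -0.20 under every alternative. Mitosis genes had a median of -0.07, with 0 of 20 at an unadjusted p under 0.05 and all 20 intervals within 2-fold, *Mki67* being at 0.12 (-0.36 to 0.59). For 25 genes of cytosolic ribosomal proteins the median was -0.04, and all 25 intervals were within 2-fold. Both medians were negative without replicate 1 of tCD115- (-0.21 for mitosis and -0.14 for ribosomal protein genes) and positive without its replicate 2 (0.03 and 0.06).

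Of 20 lysosomal genes 19 were below 0, beside 8123 of all 13211, with a median of -0.26, and 3 were negative at an unadjusted p under 0.05 (15.0%, beside 3.01% of all genes). Their median was -0.14 without replicate 1 and -0.36 without replicate 2 of tCD115-. *Lamp1*, a lysosomal membrane protein gene, had 897 and 1038 CPM in tCD115- and 1540.3 and 1469.7 CPM in tCD115+, against 1317 and 1157 CPM in nCD115- and 1489 and 1536 CPM in nCD115+ libraries, an interaction of -0.35 (-0.68 to -0.01). The tCD115- libraries were the lowest, and the nCD115- libraries came next. Immediate early genes, which respond within minutes to cell handling and to growth factors, had a median of -0.30 over 20 genes. Of these 17 were below 0, beside 8123 of all 13211, and 0 were at an unadjusted p under 0.05. That median was -0.03 without replicate 1 of tCD115-. Heat shock chaperone genes had a median of -0.18 with 12 of 13 below 0, beside 8123 of all 13211, but 0 of 13 were at an unadjusted p under 0.05. Their median was -0.10 without replicate 1 of nCD115-.

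Type I interferon-stimulated genes were lower in both subsets of EL4 TB mice, with median tumor effects of -1.26 in CD115- and -1.18 in CD115+ cells, and the median interaction over 25 genes was -0.12. Of the 25, 19 were below 0, beside 8123 of all 13211. At an unadjusted p under 0.05, 3 were positive and 0 negative, beside 2.68% and 3.01% of all genes. *Ifit2*, an interferon-induced inhibitor of viral translation, had 48.1 and 39.1 CPM in tCD115- and 17.9 and 17.8 CPM in tCD115+, against 71.0 and 68.9 CPM in nCD115- and 53.8 and 61.1 CPM in nCD115+ libraries, an interaction of 1.00 (0.64 to 1.37). *Isg20*, an interferon-induced exonuclease gene, was at 10.1 and 10 CPM in tCD115-, 4.77 and 4.77 CPM in tCD115+, 12.1 and 11.5 CPM in nCD115- and 11.7 and 11.4 CPM in nCD115+ libraries, an interaction of 1.04 (0.72 to 1.37). In *Isg20* the tCD115+ libraries alone were low. *Ddx58*, which encodes the RNA sensor RIG-I, was at 0.73 (0.38 to 1.08). *Ifit3* and *Rsad2*, antiviral genes of the same list, had interactions of -0.18 (-0.81 to 0.44) and 0.01 (-0.54 to 0.56), while their tumor effects were -2.81 and -2.21 in CD115- and -2.63 and -2.22 in CD115+ cells. The list median was -0.56 without replicate 2 and 0.21 without replicate 1 of tCD115-.

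Among 14 JAK-STAT feedback and target genes, *Lrg1* was negative and *Cish*, *Socs1* and *Socs2*, feedback inhibitors of cytokine receptors, were positive at an unadjusted p under 0.05. Of all genes, 2.68% were positive and 3.01% negative at that level. *Cish* had 3.95 and 3.92 CPM in tCD115-, 1.09 and 0.812 CPM in tCD115+, 1.89 and 1.85 CPM in nCD115- and 0.855 and 0.962 CPM in nCD115+ libraries, an interaction of 1.00 (0.30 to 1.70). *Socs3*, the inhibitor downstream of STAT3, was at 16.3 and 31.3 CPM in tCD115- and 37.9 and 36.5 CPM in tCD115+, against 10.4 and 9.13 CPM in nCD115- and 10.5 and 13.3 CPM in nCD115+ libraries. It was higher with the tumor in both subsets, and its interaction was -0.36 (-1.25 to 0.53). *Stat3* itself was at 0.01 (-0.26 to 0.27), and *Pim1*, a STAT-induced kinase gene, at 0.21 (-0.02 to 0.43) with tumor effects of 1.11 in CD115- and 0.91 in CD115+ cells.

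Of 15 MDSC suppression genes, the NADPH oxidase subunit *Ncf1* was at 1927 and 1495 CPM in tCD115- and 531 and 531 CPM in tCD115+, against 1114 and 1362 CPM in nCD115- and 540.1 and 567 CPM in nCD115+ libraries, an interaction of 0.53 (0.07 to 0.98). A second gene model, *LOC115490142*, overlaps it. *Cybb*, its catalytic partner and the member of highest CPM, had an interaction of 0.33 (-0.04 to 0.70), and *Entpd1*, the ectoenzyme CD39, 0.34 (0.03 to 0.64). *Cd38*, an NAD-consuming ectoenzyme gene, had tumor effects of 3.78 in CD115- and of 4.16 in CD115+ cells, and its interaction of -0.38 (-2.27 to 1.5) was poorly bounded. *Nos2* had at most 0.19 CPM in any library, so no fold is given for it. The median of the list was 0.04, and it was 0.41 without replicate 1 and -0.01 without replicate 2 of tCD115+.

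Among the markers of other cell types, as among all genes, none was called. T and NK cell markers had the highest list median, 1.72 over 22 genes. Of these markers 21 were above 0 (95.5%, beside 38.5% of all genes), and 9 were positive at an unadjusted p under 0.05 (40.9%, beside 2.68% of all genes). Markers of low level can pass the filter on low counts through CD115- libraries alone, so all genes are not a matched background for these shares. The summed level of the list was 135.6 and 111.5 CPM in tCD115- and 9.59 and 9.89 CPM in tCD115+, against 72.7 and 81.0 CPM in nCD115- and 14.8 and 11.8 CPM in nCD115+ libraries. The cytotoxic granule gene *Nkg7* made up most of that sum in the CD115- libraries, with 106 and 63.0 CPM in tCD115- and 44.4 and 54.9 CPM in nCD115- cells. Without *Nkg7* the sums were 29.8 and 48.5 CPM in tCD115-, 3.78 and 3.99 CPM in tCD115+, 28.3 and 26.1 CPM in nCD115- and 9.06 and 7.70 CPM in nCD115+ libraries, a 10.1-fold difference between subsets in EL4 TB and 3.25-fold in naive mice.

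*Lck*, the kinase of the T cell receptor, had 2.62 and 5.6 CPM in tCD115-, 0.152 and 0.165 CPM in tCD115+, 2.71 and 2.30 CPM in nCD115- and 0.742 and 0.737 CPM in nCD115+ libraries, an interaction of 2.93 (1.64 to 4.23). Its level fell in tCD115+ cells relative to nCD115+ cells, and the CD115- groups overlapped. *Cd3g*, a T cell receptor chain gene, had 1.58 and 1.99 CPM in tCD115-, 0.0505 and 0.0688 CPM in tCD115+, 0.997 and 0.947 CPM in nCD115- and 0.180 and 0.215 CPM in nCD115+ libraries. *Cd8b1* and *Bcl11b* had no read in either tCD115+ library, and *Cd8a* had 0 and 4 reads there. The median of the list was 2.10 without replicate 1 of tCD115- and 0.90 among genes with 10 reads in every library. The part of other cells in these values was not tested.

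B cell and plasma cell markers had a median of 0.38 over 13 genes and 1 positive at an unadjusted p under 0.05 (7.69%, beside 2.68% of all genes), *Jchain*, the joining chain of polymeric immunoglobulins. *Jchain* had 43.7 and 31.5 CPM in tCD115-, 0.667 and 0.523 CPM in tCD115+, 53.2 and 56.4 CPM in nCD115- and 2.92 and 3.09 CPM in nCD115+ libraries, an interaction of 1.78 (1.18 to 2.38) with a linear value of -14.7 CPM. *Cd79a*, the B cell receptor chain gene, was at 2.34 and 0.98 CPM in tCD115-, 1.24 and 0.812 CPM in tCD115+, 5.32 and 4.11 CPM in nCD115- and 4.14 and 3.78 CPM in nCD115+ libraries, and its interaction was 0.42 (-0.86 to 1.70). *Jchain* thus separated the subsets in both hosts, whereas the naive subsets of *Cd79a* lay close together. The summed B cell list was at 61.5 and 44.2 CPM in tCD115-, 17.3 and 13.7 CPM in tCD115+, 88.0 and 86.3 CPM in nCD115- and 35.7 and 34.1 CPM in nCD115+ libraries. The median of the list was -0.08 without replicate 1 of tCD115-.

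Basophil and mast cell markers had a median of 0.66 over 7 genes, and 2 were positive at an unadjusted p under 0.05 (28.6%, beside 2.68% of all genes). That median was 0.19 without replicate 1 and 1.00 without replicate 2 of tCD115-. *Hdc*, the histamine-forming decarboxylase that neutrophil precursors also express, had 149.8 and 118 CPM in tCD115-, 2.54 and 1.88 CPM in tCD115+, 67.4 and 99.9 CPM in nCD115- and 3.31 and 3.13 CPM in nCD115+ libraries, an interaction of 1.21 (0.49 to 1.93). The receptor gene *Fcer1a*, a defining marker, was at 0.213 CPM or less in every library. The summed list was at 158 and 123 CPM in tCD115-, 6.44 and 5.32 CPM in tCD115+, 77.7 and 109 CPM in nCD115- and 13 and 11.7 CPM in nCD115+ libraries. *Hdc* made up most of that sum in CD115- cells, with means of 134 of 141 CPM in tCD115- and 83.6 of 93.2 CPM in nCD115-. In CD115+ cells it made up 2.21 of 5.88 CPM in tCD115+ and 3.22 of 12.3 CPM in nCD115+. Megakaryocyte and platelet markers had a median of 0.33 over 10 genes, erythroid markers -0.36 over 12, endothelial and stromal markers 0.11 over 8 and eosinophil markers 0.13 over 5. Of the megakaryocyte markers 2 were positive at an unadjusted p under 0.05, and of the other 3 lists 0 genes were. The erythroid, endothelial and eosinophil medians changed sign with the setting. They were between -0.99 (nCD115+ replicate 2 left out) and 0.50 (10 reads in every library) for erythroid, -0.47 (tCD115- replicate 2 left out) and 0.43 (nCD115- replicate 1 left out) for endothelial and stromal and -0.34 (nCD115- replicate 2 left out) and 0.58 (tCD115+ replicate 1 left out) for eosinophil markers, while the megakaryocyte median was between 0.11 (nCD115+ replicate 2 left out) and 0.58 (tCD115+ replicate 1 left out). In CD115+ cells the median tumor effect was -1.75 for B cell and plasma cell, -1.50 for T and NK cell, -1.41 for erythroid, -1.28 for basophil and mast cell, -1.02 for endothelial and stromal, -0.84 for megakaryocyte and platelet and 0.24 for eosinophil markers, beside 0.02 over all genes. In CD115- cells the same lists, in the same order, had median tumor effects of -1.05, 0.67, -2.15, -0.35, -0.57, 0.06 and 0.37. Erythroid markers thus had the lower median in CD115- cells.

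**Figure D5:**
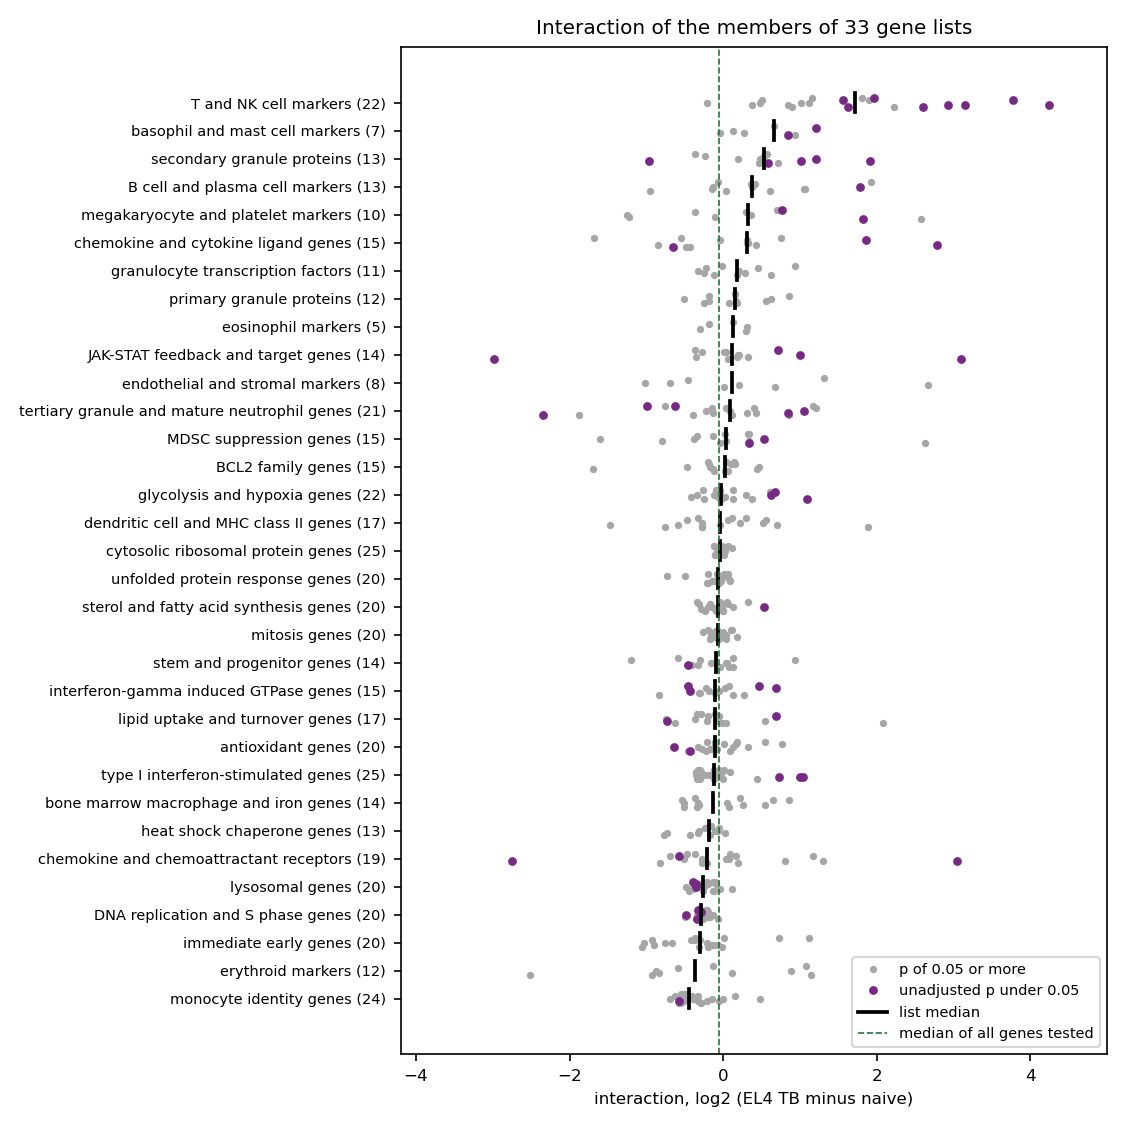
Each row is 1 of 33 gene lists with its number of tested genes, points are the interactions of its members (purple at an unadjusted p under 0.05), black bars are list medians and the dashed line is the median of all genes tested; 5 members lie outside the axis. T and NK cell markers have the highest median, 1.72, and monocyte identity genes the lowest, -0.44, while ribosomal protein and mitosis genes cluster near the median of all genes.

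The 171 positive genes at an unadjusted p under 0.05 and 2-fold were mostly genes whose difference between subsets was wider in EL4 TB mice. Their subset difference kept its positive sign and was larger in EL4 TB mice in 132, was negative and smaller in 6, and changed sign in 33. In 162 of the 171 the mean was lower in tCD115+ than in nCD115+ cells, in 135 it was higher in tCD115- than in nCD115- cells, and 121 had the larger absolute tumor effect in CD115+ cells. The 85 negative genes comprised 20 with a positive difference that was narrower in EL4 TB mice, 23 with a negative one that was wider, and 42 with a change of sign, and 44 had the larger tumor effect in CD115+ cells. These 256 genes were selected by the sign and size of their interaction. The directions counted here therefore follow in part from that selection, and no conclusion is drawn from them. In 58 of the 256 genes at least 1 group had no read. *Slc6a12*, a betaine and GABA transporter gene, came close to that limit, with 16.5 and 12.4 CPM in tCD115-, 0.0606 and 0 CPM in tCD115+, 13.5 and 17.7 CPM in nCD115- and 0.731 and 0.778 CPM in nCD115+ libraries.

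Tumor effects of opposite direction without overlap of libraries in either subset were found in 398 of 13211 genes (3.01%), of which 183 were up and 215 down in CD115- cells. The interaction reached 2-fold in 119 of them, and 26 of these had at least 10 CPM in 1 group, 18 with a positive and 8 with a negative interaction. *Cmah*, *Csf1*, *Slfn4*, *Cd177*, *Pglyrp1* and *Hdc* were among the positive ones and *C5ar1*, *Chtop*, *Kat7* and *Net1* among the negative ones. Pairs of 2 libraries that do not overlap are a weak criterion, and none of these genes passed the adjusted threshold.

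Calls within each subset cannot be read as an interaction. The tumor effect was called in 434 genes in CD115- cells (3.29% of genes tested, 113 higher and 321 lower in tCD115-) and in 343 in CD115+ cells (2.60%, 124 higher and 219 lower in tCD115+), and 188 genes were called in both, 43.3% of the CD115- and 54.8% of the CD115+ calls. Of these 188, 187 had the same direction and 174 an interaction interval that included 0. A tumor effect was called in 1 subset and not the other in 401 genes. In 357 of them the other subset had the same sign, in 258 the interaction interval included 0, and in 48 it lay within 2-fold, so for most of these genes a difference between the subsets was neither shown nor bounded. The subsets themselves differed in 1630 genes in EL4 TB mice (12.3%) and 821 in naive mice (6.21%). Both counts come from the same fit of all 8 libraries and share its estimates of spread. Their difference is no test of an interaction.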

How the data were processed

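The authors sequenced RNA of CD115- and CD115+ monocytic cells from the BM of EL4 TB and naive mice (2 libraries per group, made with a stranded mRNA kit) and deposited 1 table of whole-number read counts per gene, not normalized. Genes without a read are not in it. The submitters' notes name mm10, HISAT2 2.0.5, Bowtie2, StringTie 1.3.3b and DESeq2 with no roles, and whether counting used strand is not stated in them. The table's 24 columns of the authors' own comparisons (fold changes, p-values) were left aside, as were 20 other columns with sample or group values.

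Counts were analysed in R 4.3.3 with edgeR 4.0.16: filterByExpr, TMM scaling, and a robust quasi-likelihood fit of all 8 libraries with 1 mean per group (4 residual degrees of freedom, median prior 3.65), adjusted by Benjamini-Hochberg over 13211 genes. Genes were called at an adjusted p under 0.05 and 2-fold, the study's thresholds. Unadjusted p-values and 95% intervals come from the same fit and measure the spread between these libraries. Where a group had no read, 3 counts for the whole group were put in its place, a floor for counting error alone. CPM comes from TMM-scaled totals (median total 91432632). Alternatives were DESeq2 1.42.0, limma-voom (limma 3.58.1), other scalings, filters and thresholds, replicate blocks and leaving out each library. Plots used Python 3.11.15 and matplotlib 3.10.9.

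The 34 gene lists (572 genes, 520 tested) were written from textbook knowledge, and they and the comparison were chosen with earlier results of these data known. The naming rule took the called genes of largest change, then the member of highest CPM of each list without a call and the sorting markers. As no gene was called, all other genes, those at an unadjusted p under 0.05, were chosen after their values were seen. RefSeq (GRCm38.p6, the mm10 assembly) matched 16123 genes and gave coordinates and promoters. Some genes are not reported here.

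Replicate numbers are not said to mark shared mice, and deviations of same-numbered libraries correlated between -0.099 and 0.0778 across groups, so no block entered the fit.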

Additional observations from a re-analysis of the deposited data

Results flagged for a closer look

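The 20 genes given here had tumor effects of opposite direction in the subsets, with every CD115- library on one side and every CD115+ library on the other side of its naive counterparts. The interaction test of edgeR called none of them, so for each the difference between subsets is a value and not a call. Groups of 2 libraries allow no test of outlying libraries.

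Those with a higher level in tCD115- and a lower level in tCD115+ than in the naive counterparts had log2 interactions of 3.23 (*Cmah*), 2.78 (*Csf1*), 2.61 (*Cd3g*), 1.91 (*Cd177*), 1.82 (*Clec1b*), 1.48 (*Slfn4*), 1.47 (*Ikzf3*), 1.21 (*Hdc*), 1.21 (*Pglyrp1*), 0.84 (*Ms4a2*) and 0.53 (*Ncf1*). *Cd55*, a complement regulator gene that shares bases with *Cd55os*, had 4.59 and 1.83 CPM in tCD115-, no read in tCD115+, 0.807 and 1.55 CPM in nCD115- and 0.54 and 0.45 CPM in nCD115+ libraries, an interaction of at least 6.27 with tCD115+ set to the floor.

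The opposite order gave -2.75 (*C5ar1*), -1.64 (*Net1*), -1.61 (*BC003331*), -1.57 (*Kat7*), -1.45 (*Gm6710*), -1.32 (*Chtop*) and -1.10 (*Cinp*). *Zfp965*, a zinc finger gene whose reads could be split with near-identical copies and with *Gm4724*, had 0.451 and 0.935 CPM in tCD115-, 1.12 and 1.10 CPM in tCD115+, 0.975 and 1.13 CPM in nCD115- and no read in nCD115+ libraries, and its interaction was -6.71 or lower with nCD115+ set to the floor.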

How the results depend on the processing

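With edgeR as reported, 0 genes were called in either direction, and this also held with limma-voom, library totals, RLE size factors, 10 reads required in every library, no fold threshold and glmTreat against 1.5-fold. Calls appeared with DESeq2 (57 positive, 12 negative) and with no filter beyond 1 read (3 and 1). Leaving out 1 library at a time gave 0 to 60 positive and 0 to 113 negative calls. Genes at an unadjusted p under 0.05 numbered from 412 (without replicate 1 of nCD115-) to 2572 (without replicate 2 of tCD115-), beside 751. The cause was not tested.

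A replicate block over all groups gave 0 positive and 0 negative calls (709 genes at an unadjusted p under 0.05), and a replicate block within host, which pairs the subsets of each host by number, gave 5 and 2 (848 genes). The block within host called *Lrg1* and *Wfdc21* negative, and *Cmah*, *Csf1*, *Cd177* and *Jchain* among the positive ones. Deviations of same-numbered libraries of the subsets had correlations of 0.0685 in EL4 TB and 0.0778 in naive mice. Secondary granule sums did move together by number. They were 70622 and 47361 CPM in tCD115- with 4413 and 3196 CPM in tCD115+ libraries. In naive mice they were 35305 and 45493 CPM in nCD115- with 2590 and 3618 CPM in nCD115+ libraries. Monocyte identity sums moved in opposite directions in both hosts. Whether the numbers mark pairs is not settled.

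With 2 libraries per group the limit is the spread between libraries, largest in tCD115-, and for genes near 0.01 CPM the depth. Of 103 named genes none that was called under an alternative had changed sign, but the alternatives reuse these libraries. DESeq2 called 29 of the 103.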

Other observations

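Metabolic genes held further members with an unadjusted p under 0.05, chosen after their values were seen and called by none of the thresholds with edgeR. Glycolysis and hypoxia genes had a median interaction of -0.03 over 22 genes, and the 3 at that level were positive (13.6%, beside 2.68% of all genes): the glucose transporter gene *Slc2a3* and the regulators of fructose 2,6-bisphosphate *Pfkfb3* and *Pfkfb4*. *Slc2a3* had 223 and 146 CPM in tCD115- and 8.82 and 6.0 CPM in tCD115+, against 72.6 and 102 CPM in nCD115- and 8.1 and 6.85 CPM in nCD115+ libraries, an interaction of 1.09 (0.22 to 1.96). The CD115+ groups overlapped, and the tCD115- libraries were the highest. *Pfkfb3* and *Pfkfb4* had interactions of 0.62 (0.23 to 1.02) and 0.68 (0.32 to 1.05), while *Pkm*, the pyruvate kinase gene of highest CPM in the list, had -0.04 (-0.31 to 0.24). Lipid uptake and turnover genes had a median of -0.11 over 17 genes, with *Dgat1*, which completes triglyceride synthesis, at 0.69 (0.16 to 1.23) and *Fabp5*, a fatty acid carrier gene, at -0.73 (-1.42 to -0.03). Sterol and fatty acid synthesis genes had a median of -0.07 over 20 genes, with *Fdps* at 0.54 (0.02 to 1.06). Antioxidant genes had a median of -0.11 over 20 genes, and 2 were negative, *Sod1*, the cytosolic superoxide dismutase gene, at -0.43 (-0.74 to -0.12) and *Srxn1* at -0.63 (-1.17 to -0.10). Without 1 library the medians of the glycolysis and sterol lists turned sign, to 0.03 with nCD115+ replicate 2 left out and to 0.07 with tCD115- replicate 1 left out.

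Dendritic cell and MHC class II genes had a median of -0.04 over 17 genes with 0 at an unadjusted p under 0.05. *Cd74*, the invariant chain gene, had 57.7 and 50.1 CPM in tCD115- and 91.7 and 71.2 CPM in tCD115+, against 189 and 139 CPM in nCD115- and 285 and 293 CPM in nCD115+ libraries, an interaction of 0.22 (-0.33 to 0.77) between groups that were all lower with the tumor. Of 15 interferon-gamma induced GTPase genes, *Tgtp1* and *Tgtp2* were positive, at 0.69 and 0.47, and *Gbp3* and *Gbp5* negative, at -0.43 and -0.46, and *Tgtp1* and *Tgtp2* are near-identical copies whose reads could have been split. Granulocyte transcription factors (11 genes, median 0.18), stem and progenitor genes (14, -0.09), BM macrophage and iron genes (14, -0.13), unfolded protein response genes (20, -0.06) and BCL2 family genes (15, 0.02) had 1 gene among them at an unadjusted p under 0.05, the progenitor and monocyte surface gene *Cd93* at -0.46 (-0.89 to -0.04). Of all genes, 2.68% were positive and 3.01% negative there. The MHC class II median was -0.46 without replicate 2 of tCD115-, and those of the granulocyte factor, macrophage and BCL2 lists turned sign without 1 library (granulocyte factors -0.08 with tCD115+ replicate 1 left out, macrophage genes 0.12 and BCL2 family genes -0.15 with tCD115- replicate 2 left out).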
